A study of Mus musculus with 12 samples.

Results

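The genes described here are 38 genes known to respond to type I interferons, followed in AtT-20 cells, a mouse pituitary tumor line that serves as a model of corticotropes, the pituitary cells that make the hormone precursor POMC. They were chosen by symbol from a list of interferon-induced genes, with earlier results of these data known. Of the 38, 34 have a row in the table of 16385 genes, and 31 reached at least 1 FPKM (read fragments relative to the length of the gene and the total of the library) in at least 2 libraries and were tested among 12578 genes. Ifit2, Ifit3, Ifi44 and Sp100 were not analysed here. The cells were pools that had been infected with the retroviral vector pLNCX2 and expressed, from its CMV promoter, one of several transcription factors of the paired box family. The 6 groups of 2 libraries each were cells with Pax3, the close relative of Pax7; cells with Pax7-465, a Pax7 cut short after residue 465; cells with the Pax7 isoforms Q-GL+, Q+GL+ and Q-GL-; and cells with a Pax7 whose title reads NoTag and whose genotype is given as Pax7 without an isoform. Q stands for a glutamine and GL for a glycine and leucine pair that alternative splicing adds to the DNA-binding paired domain. The paper gives Pax3 as Q+GL-, and its supplement labels the shortened Pax7 forms as Q+GL- mutants. By these labels Pax3, Pax7-465 and Q-GL- all lack the GL pair. Pax7-465 then differs from Q-GL+ in Q, in GL and in the missing end. It differs from Q+GL+ in GL and the end, and from Q-GL- in Q and the end. The study's methods describe the constructs as carrying Flag tags at both ends. The libraries are described as biological replicates of cultured cells, and whether they came from separate infections is not given in the sources used here, so p-values measure the spread between these cultures.

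Type I interferons are secreted when sensors such as RIG-I (Ddx58), MDA5 (Ifih1) and LGP2 (Dhx58) meet viral or misplaced nucleic acid. They act through the receptor chains Ifnar1 and Ifnar2 and the kinases Jak1 and Tyk2 to bring together a complex with Stat2 and Irf9 that binds interferon-stimulated response elements in promoters. The induced genes encode further sensors, transcription factors such as Irf7 that amplify the response, the ubiquitin-like protein Isg15 with its enzymes, and effectors that block steps of viral replication. Many of them also have a low level in unstimulated cells.

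The promoters of several of these genes carry the letters of such an element, and 5 of them are shown because the levels of Isg15, Oas1a, Bst2, Stat2 and Rsad2 are followed below. The sequences are RefSeq's, on build GRCm38.p6, written 5′ to 3′ along the gene's strand, with matches to GAAA, 2 bases of any kind and GAAA, or to the same letters on the other strand (TTTC, 2 bases, TTTC), in capitals.
Isg15: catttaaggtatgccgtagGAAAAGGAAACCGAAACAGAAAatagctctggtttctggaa
Oas1a: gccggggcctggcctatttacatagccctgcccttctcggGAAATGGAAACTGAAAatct
Bst2: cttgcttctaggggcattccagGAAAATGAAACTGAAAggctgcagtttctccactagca
Stat2: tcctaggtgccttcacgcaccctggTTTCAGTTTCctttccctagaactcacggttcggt
Rsad2: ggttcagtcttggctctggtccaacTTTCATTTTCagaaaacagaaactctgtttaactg
The Isg15 stretch, at chr4:156200856-156200915 on the minus strand, holds 3 overlapping matches in a run of 22 bases that lies 78 to 57 bases before the start of transcription in RefSeq. The run of 2 matches in Oas1a, in chr5:120907526-120907585 on the minus strand, lies 20 to 5 bases before the start, and that of Bst2, in chr8:71537565-71537624 on the minus strand, lies 130 to 115 bases before it. Stat2, in chr10:128270251-128270310 on the plus strand, and Rsad2, in chr12:26456538-26456597 on the minus strand, have 1 match each on the other strand.

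A window of 300 bases, 250 before and 50 after the start, was found for 29 of the 38 genes. Of these, 11 hold this motif on either strand (37.9%), against 3.99% of the windows of 27025 gene symbols. The STAT-type letters TTCNNNGAA, which read the same on both strands, are in 7 of the 29 (24.1%), against 9.55% of all windows, and Bst2, Eif2ak2 and Oas1a hold both, where matches of the motifs may overlap. A match describes letters and not a bound site. No window was found for Mx1, Mx2, Parp9, Parp14, Rtp4, Zbp1, Ifi27, Usp18 and Dhx58.

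Summed FPKM per library was 413794 to 483161 outside NoTag and 627305 to 666609 in the NoTag libraries, in which 733 genes are above 0 that are listed at 0 in the other 10 libraries. The table holds no read counts, so depth is unknown and the spread between libraries is the only error given. As the labels say, Pax7 was at 0.159 and 0.161 FPKM in Pax3 cells, and at 109 and 113 in Pax7-465 cells, 104 and 102 in Q-GL+ cells, 99.9 and 102 in Q+GL+ cells, 95.2 and 93.9 in Q-GL- cells and 157 and 159 in NoTag cells. Pax3 itself was not analysed here. The corticotrope factor Tbx19 was at 116 to 143 FPKM in all libraries. Of 9 corticotrope markers, 7 were tested. Of these 1, Pcsk1, passed the F test described below (limma adjusted p = 0.0072), where 4.78% of all genes did. Pcsk1 was at 225 and 259 FPKM in Pax3 cells and 385 and 391 in Q-GL- cells. Pomc was at 5112 and 6422 FPKM in Pax3 cells and 8622 and 9158 in Q-GL- cells (limma F test, adjusted p = 0.0561). For Pax3 over Q-GL- cells, 0 of the 7 were called higher and 2 lower, against 0.716% and 3.62% of all genes. Of 12 immune cell markers, 3 are in the table, Cd68, Lyz2 and Csf1r, and their summed level was 0.275 to 1.39 FPKM outside NoTag, highest in Q+GL+ cells at 1.39 and 1.20 FPKM, with Csf1r listed at 0 in these 10 libraries. In NoTag cells the sum was 1.63 and 2.06 FPKM. Of 9 fibroblast and endothelial markers, 3 are in the table, at a summed 0.517 to 1.19 FPKM over the 12 libraries.

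The differences among the 5 groups other than NoTag were small, and on the log2(FPKM + 1) scale the mean of each of the 31 genes differed by less than 1 between its highest and lowest group. That scale understates the change of low genes, such as Oasl2 with mean FPKM of 1.25 in Pax3 cells and 0.499 in Q-GL- cells. Group means, taken as log2(FPKM + 1), were highest in Pax3 cells for 16 of the 31 genes tested, in Q-GL+ cells for 6, in Q+GL+ cells for 5, in Q-GL- cells for 3 and in Pax7-465 cells for 1. Over all 12578 genes the shares were 14.5% in Pax3 cells, 13.9% in Pax7-465 cells, 18.4% in Q-GL+ cells, 20.6% in Q+GL+ cells and 32.5% in Q-GL- cells. The lowest mean was in Q-GL- cells for 15 of the 31 and in Pax7-465 cells for 10, against 16.3% and 18.4% of all genes. Oasl2, counted among the 16 genes highest in Pax3 cells, would not have passed the filter on low values without the Pax3 libraries. It gives no support to this count or to later counts of genes higher in Pax3 cells. Mx1, also among the 16, was at only 0.162 to 0.431 FPKM outside NoTag. A higher level in a pool of cells can come from more cells that express a gene or from more RNA per cell, and these cannot be told apart. Outside NoTag, the summed immune markers were highest in Q+GL+ cells. The summed fibroblast and endothelial markers were at 0.846 and 1.19 FPKM in Pax3 cells and 0.517 to 0.877 in the other groups outside NoTag. The part of either set of markers in these levels was not tested.

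**Figure D1:**
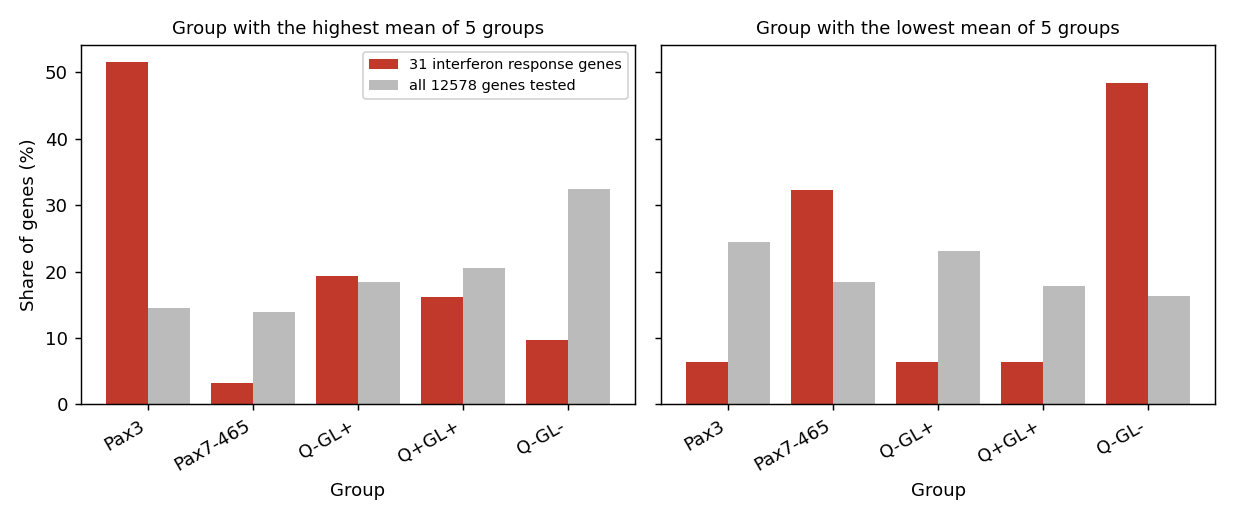
The share of genes (%) whose mean is highest (left) or lowest (right) in each of the 5 groups other than NoTag, for the 31 interferon response genes tested (red) and all 12578 genes tested (grey). Red bars are tallest for Pax3 on the left, with 16 of 31 genes, and for Q-GL- on the right, with 15 of 31.

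The levels were also set side by side by library. In the Pax3 libraries, 25 and 26 of the 31 genes lay above their mean over the 10 libraries other than NoTag, against 28.6% and 61.0% of all genes, with a median deviation of 0.097 and 0.189 on the log2 scale. In the Pax7-465 libraries 10 and 8 genes lay above it, against 38.3% and 57.8% of all genes, with medians of -0.057 and -0.112. The Q-GL+ libraries had 22 and 20 genes above it, against 57.4% and 34.7% of all genes, with medians of 0.072 and 0.07. The Q+GL+ libraries had 14 and 17, against 44.7% and 58.3%, with medians of -0.034 and 0.022, and the Q-GL- libraries 6 and 7, against 58.1% and 60.9%, with medians of -0.091 and -0.139. The share of all genes thus differed between libraries of 1 group, most of all in Pax3 cells. The median deviation of all genes tested was between -0.071 and 0.034 in these 10 libraries. In the median of the 31 genes, both Pax3 and both Q-GL+ libraries were above both Pax7-465 and both Q-GL- libraries, while the Q+GL+ libraries lay between them.

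**Figure D2:**
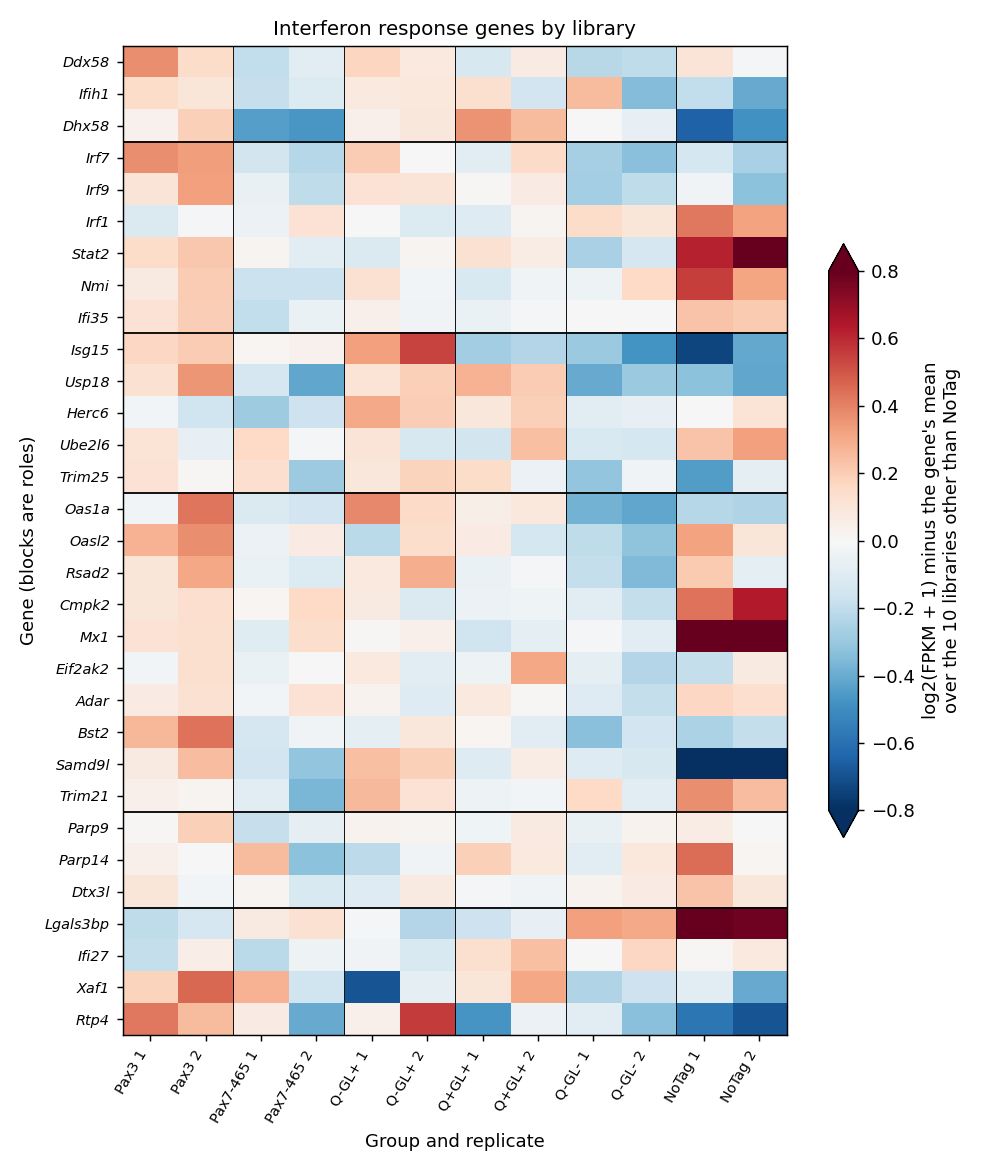
Log2(FPKM + 1) of each of the 31 tested genes minus its mean over the 10 libraries other than NoTag, by library (columns) and gene (rows, in blocks by role). Colours saturate at 0.8 on either side. Red prevails in the Pax3 columns, with 25 and 26 of 31 genes above their mean, and blue in the Q-GL- columns, with 6 and 7 above it.

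In a moderated F test over the 5 groups (limma, Benjamini-Hochberg adjustment over all genes tested), 6 of the 31 genes passed an adjusted p of 0.05, where 4.78% of all genes did. They were Isg15 (adjusted p = 0.0057), Dhx58 (0.0073), Lgals3bp (0.0158), Irf7 (0.0158), Usp18 (0.0201) and Bst2 (0.0236). Samd9l (0.0507), Oas1a (0.0583) and Herc6 (0.0606) lay just outside by the same test. At an unadjusted p of 0.05, 18 of the 31 passed, against 19.5% of all genes. By role, 1 of 3 tested sensors, 1 of 6 transcription factors and signalling proteins, 2 of 5 genes of the Isg15 system, 1 of 10 antiviral effectors, 0 of 3 genes of ADP-ribosylation and 1 of 4 other induced genes passed, with 2, 4, 3, 5, 0 and 4 genes at an unadjusted p of 0.05 in these roles. The count of 6 became 2 without the first Q-GL- library and 3 without the second.

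Among the sensors, Dhx58 was set apart by a low level in Pax7-465 cells. Dhx58, which encodes LGP2, a helicase that modulates the signalling of RIG-I and MDA5, was at 4.60 and 5.22 FPKM in Pax3 cells, 3.02 and 2.95 in Pax7-465 cells, 4.62 and 4.82 in Q-GL+ cells, 5.98 and 5.51 in Q+GL+ cells, 4.44 and 4.22 in Q-GL- cells and 2.49 and 2.90 in NoTag cells. Both Pax7-465 libraries lay below every library of Pax3, Q-GL+, Q+GL+ and Q-GL- cells and above both NoTag libraries. The log2 fold change of Pax7-465 over Q+GL+ cells was -0.76 (SE 0.10, limma adjusted p = 0.0034), and that over Q-GL+ cells was -0.52 (SE 0.10, limma adjusted p = 0.0373). The first of these calls held in every alternative run, whereas the second was lost without any 1 of its 4 libraries (limma adjusted p between 0.137 and 0.275), without the NoTag libraries (0.0516) and with a replicate block (0.0505).

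Ddx58, the gene of RIG-I, followed the Pax3 and Q-GL+ side of the pattern at a lower level. It was at 2.20 and 1.75 FPKM in Pax3 cells, 1.16 and 1.33 in Pax7-465 cells, 1.79 and 1.61 in Q-GL+ cells, 1.27 and 1.59 in Q+GL+ cells, 1.13 and 1.15 in Q-GL- cells and 1.66 and 1.45 in NoTag cells. The Pax3 libraries were above both Q-GL- libraries, with a log2 fold change of 0.47 (SE 0.13, limma adjusted p = 0.0602). Ifih1, the gene of MDA5, was at 4.33 and 2.51 FPKM in the 2 Q-GL- libraries, a spread that covered all other libraries but the second NoTag library. Zbp1, a sensor of nucleic acid in the Z form, reached 1.01 FPKM in 1 library and 0.682 FPKM in the next and was not tested.

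Of the transcription factors, Irf7 was higher in Pax3 cells than in Q-GL- cells. Irf7 drives interferon gene transcription once phosphorylated and is itself induced by interferon. Its level was 10.3 and 10.0 FPKM in Pax3 cells, 6.89 and 6.44 in Pax7-465 cells, 9.05 and 7.76 in Q-GL+ cells, 7.21 and 8.69 in Q+GL+ cells, 6.26 and 5.93 in Q-GL- cells and 6.92 and 6.29 in NoTag cells. Both Pax3 libraries were above the 10 other libraries, and both Q-GL- libraries were below the 8 other libraries outside NoTag. The log2 fold change of Pax3 over Q-GL- cells was 0.65 (SE 0.10, limma adjusted p = 0.0036), and this call held in every alternative run. That of Q-GL+ over Q-GL- cells, 0.40 (SE 0.10), had a limma adjusted p of 0.0517.

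The partners of the transcription factor complex moved less. Irf9, its DNA-binding subunit, was at 5.18 and 6.23 FPKM in Pax3 cells and 3.76 and 4.002 in Q-GL- cells, which made a log2 fold change of 0.45 (SE 0.12, limma adjusted p = 0.0547). Stat2, whose promoter is shown above, was at 8.33 and 8.81 FPKM in Pax3 cells and 6.06 and 6.69 in Q-GL- cells, which made a log2 fold change of 0.38 (SE 0.10, limma adjusted p = 0.0516), and at 11.9 and 13.9 in NoTag cells. In both genes the Pax3 libraries did not overlap the Q-GL- libraries, yet neither passed the test. Irf1, which responds to interferon gamma, had the reverse order, with 16.4 and 17.7 FPKM in Pax3 cells and 19.8 and 19.1 in Q-GL- cells and a limma adjusted p of 0.288. Nmi, which binds STAT proteins, and its partner Ifi35 ranged over 11.99 to 15.9 FPKM and 18.0 to 23.9 FPKM outside NoTag, with their lowest means in Pax7-465 cells.

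Outside NoTag, Isg15 had the widest difference of the 31 genes on the log2(FPKM + 1) scale. It encodes the ubiquitin-like protein that is attached to other proteins in the interferon response. Isg15 was at 11.5 and 11.9 FPKM in Pax3 cells, 10.3 and 10.5 in Pax7-465 cells, 13.1 and 15.2 in Q-GL+ cells, 8.23 and 8.49 in Q+GL+ cells, 8.08 and 7.02 in Q-GL- cells and 5.71 and 7.41 in NoTag cells. The libraries of these groups did not overlap in the order Q-GL+, Pax3, Pax7-465, Q+GL+ and Q-GL-, and those of NoTag overlapped Q-GL-. The log2 fold change of Q-GL+ over Q-GL- cells was 0.82 (SE 0.11, limma adjusted p = 0.0015), and this call held in every alternative run. Q-GL+ cells were also higher than Q+GL+ cells, by 0.69 (SE 0.11, limma adjusted p = 0.0146), and Pax3 cells higher than Q-GL- cells, by 0.57 (SE 0.11, limma adjusted p = 0.0136). The call against Q+GL+ cells was lost without any 1 of the 4 libraries (limma adjusted p between 0.055 and 0.171), and that of Pax3 without Pax3 replicate 1 (0.0668) or Q-GL- replicate 2 (0.133). Of the neighbours in this order, Pax3 over Q-GL+ had a limma adjusted p of 0.489, Pax7-465 over Q+GL+ of 0.313 and Q+GL+ over Q-GL- of 0.662, and Pax3 and Pax7-465 cells were not compared by a test.

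Usp18, the protease that removes Isg15 and also dampens the interferon receptor, had a high and a low set of libraries. It was at 3.80 and 4.62 FPKM in Pax3 cells, 3.01 and 2.30 in Pax7-465 cells, 3.74 and 4.04 in Q-GL+ cells, 4.33 and 4.06 in Q+GL+ cells, 2.33 and 2.58 in Q-GL- cells and 2.51 and 2.30 in NoTag cells. The 6 libraries of Pax3, Q-GL+ and Q+GL+ cells were all above the 6 others. Pax7-465 cells were not called lower than Q-GL+ cells (limma adjusted p = 0.178) or Q+GL+ cells (0.0704). They were not compared with Pax3 cells by a test. Over Q-GL- cells, the log2 fold change was 0.59 in Pax3 cells (SE 0.12, limma adjusted p = 0.0187), 0.50 in Q-GL+ cells (SE 0.12, limma adjusted p = 0.0415) and 0.59 in Q+GL+ cells (SE 0.12, limma adjusted p = 0.0295). The call in Q-GL+ cells was lost with a replicate block (limma adjusted p = 0.0562), without the NoTag libraries (0.0596) and with no filter on low values (0.0568). Leaving out any 1 library ended the calls in Q-GL+ and Q+GL+ cells (limma adjusted p between 0.101 and 0.251), and leaving out Pax3 replicate 2 (0.0821) or Q-GL- replicate 1 (0.133) or 2 (0.083) that in Pax3 cells.

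The ligases of Isg15 showed smaller differences. Herc6, which attaches Isg15 in mouse cells, was at 4.10 and 3.64 FPKM in Pax3 cells, 3.24 and 3.60 in Pax7-465 cells, 5.39 and 4.92 in Q-GL+ cells, 4.50 and 4.91 in Q+GL+ cells and 3.87 and 3.94 in Q-GL- cells. Its Q-GL+ libraries were above every other library, and the log2 fold change of Pax7-465 over Q-GL+ cells was -0.48 (SE 0.10, limma adjusted p = 0.055). The conjugating enzyme Ube2l6, at 1.34 to 2.05 FPKM outside NoTag, and Trim25, a ligase for RIG-I, at 10.1 to 14.7 FPKM there, had no difference that passed.

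**Figure D3:**
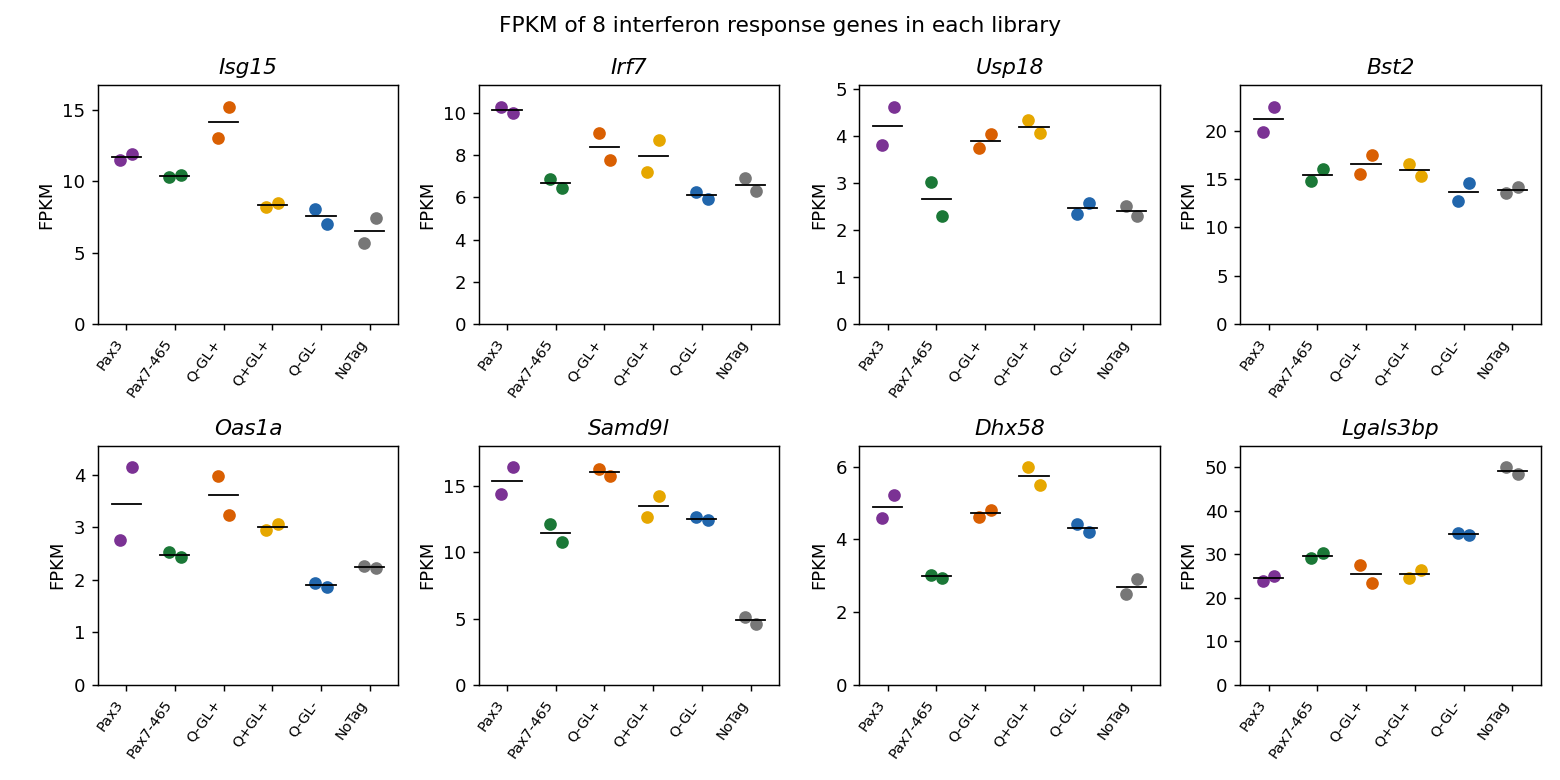
FPKM of 8 interferon response genes in each library (points) and the mean of the 2 libraries (bar) in Pax3, Pax7-465, Q-GL+, Q+GL+, Q-GL- and NoTag cells. Isg15 peaks in Q-GL+ cells (13.1 and 15.2), Irf7 and Bst2 in Pax3 cells, Dhx58 is low in Pax7-465 cells (3.02 and 2.95), Lgals3bp is lower in the other 5 groups than in NoTag cells, and Samd9l is higher in the other 5 groups than in NoTag cells.

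Among the antiviral effectors, Bst2 was higher in Pax3 cells. Bst2 encodes tetherin, which holds budding virus particles at the cell surface. It was at 19.9 and 22.5 FPKM in Pax3 cells, 14.8 and 16.0 in Pax7-465 cells, 15.5 and 17.5 in Q-GL+ cells, 16.6 and 15.3 in Q+GL+ cells, 12.8 and 14.6 in Q-GL- cells and 13.6 and 14.2 in NoTag cells. Both Pax3 libraries were above the 10 other libraries, and the log2 fold change of Pax3 over Q-GL- cells was 0.59 (SE 0.10, limma adjusted p = 0.0038). This call was lost without Q-GL- replicate 1 (limma adjusted p = 0.0544). Pax3 over Q+GL+ cells had 0.39 (SE 0.10, limma adjusted p = 0.166) with libraries that did not overlap.

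Oas1a, a 2′-5′-oligoadenylate synthetase that activates RNase L on double-stranded RNA, was at 2.76 and 4.14 FPKM in Pax3 cells, 2.52 and 2.43 in Pax7-465 cells, 3.98 and 3.24 in Q-GL+ cells, 2.95 and 3.06 in Q+GL+ cells, 1.94 and 1.86 in Q-GL- cells and 2.26 and 2.23 in NoTag cells. Both Q-GL- libraries were below every other library. Q-GL+ cells were higher than Q-GL- cells by 0.66 (SE 0.14, limma adjusted p = 0.0216) and Pax3 cells by 0.60 (SE 0.14, limma adjusted p = 0.0334). The first call was lost without any 1 of its libraries (limma adjusted p between 0.0554 and 0.143). The second was lost without Pax3 replicate 2 (0.128), Q-GL- replicate 1 (0.133) or Q-GL- replicate 2 (0.172), without the NoTag libraries (0.0502) and with no filter on low values (0.0532). Oas1a has close copies in the Oas1 cluster, so its share of the reads is uncertain.

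Samd9l, whose product restricts poxviruses, was at 14.4 and 16.4 FPKM in Pax3 cells, 12.2 and 10.8 in Pax7-465 cells, 16.3 and 15.7 in Q-GL+ cells, 12.7 and 14.3 in Q+GL+ cells, 12.7 and 12.4 in Q-GL- cells and 5.09 and 4.61 in NoTag cells. Outside NoTag its widest difference was that of Pax7-465 over Q-GL+ cells, with a log2 fold change of -0.45 (SE 0.09, limma adjusted p = 0.0538). Rsad2, the gene of viperin, was at 1.25 and 1.61 FPKM in Pax3 cells, 1.22 and 1.58 in Q-GL+ cells and 0.849 and 0.655 in Q-GL- cells, and the limma adjusted p was 0.0935 for Pax3 and 0.104 for Q-GL+ over Q-GL- cells. Cmpk2, a nucleotide kinase whose gene lies 12751 bases from Rsad2 on chromosome 12 on the other strand, was at 3.77 to 5.06 FPKM outside NoTag and did not pass in any comparison among the 5 groups.

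The other effectors were low or little changed. The RNA-activated kinase Eif2ak2 was at 5.08 to 7.88 FPKM and the RNA-editing enzyme Adar at 14.6 to 18.4 FPKM outside NoTag. Oasl2, an oligoadenylate synthetase-like gene with 1.18 and 1.33 FPKM in Pax3 cells and 0.558 and 0.440 in Q-GL- cells, and Trim21, an antibody receptor of the cytosol with 0.939 to 1.99 FPKM outside NoTag, passed in no comparison among these 5 groups. Mx1, a GTPase against influenza viruses, was at 0.162 to 0.431 FPKM in the 10 libraries outside NoTag and was tested only because NoTag had 2.60 and 1.45 FPKM. Just outside the filter with Zbp1, Mx2 reached 0.869 FPKM. Further below it, Ifit1, whose protein binds viral RNA ends, was listed at 0 in these 10 libraries and at 0.144 and 0.0557 FPKM in NoTag cells. Just inside it, Oasl2 had a second highest library of 1.25 FPKM, with both Pax3 libraries among the 3 that reached 1 FPKM, and Parp14 of 1.45 FPKM.

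Parp9, Parp14 and Dtx3l, whose products act together in ADP-ribosylation and ubiquitylation, had no difference that passed in any comparison. Their ranges outside NoTag were 7.53 to 10.0, 0.635 to 1.45 and 3.98 to 4.79 FPKM. Dtx3l and Parp9 overlap by 682 bases on opposite strands of chromosome 16. The libraries are strand-specific, but the strand setting of the counting is not given in the sources used here, so reads in the overlap may count for either gene.

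Lgals3bp, a secreted glycoprotein that binds galectins, was lower in Pax3, Q-GL+ and Q+GL+ cells than in Q-GL- cells. It was at 23.9 and 25.1 FPKM in Pax3 cells, 29.2 and 30.2 in Pax7-465 cells, 27.5 and 23.4 in Q-GL+ cells, 24.6 and 26.4 in Q+GL+ cells, 35.0 and 34.4 in Q-GL- cells and 49.96 and 48.3 in NoTag cells. Both Q-GL- libraries were above the 8 others outside NoTag. Over Q-GL- cells, Lgals3bp fell by 0.48 on the log2 scale in Pax3 cells (SE 0.08, limma adjusted p = 0.0058), by 0.44 in Q-GL+ cells (SE 0.08, limma adjusted p = 0.0118) and by 0.43 in Q+GL+ cells (SE 0.08, limma adjusted p = 0.0194). The call in Pax3 cells was lost without either Q-GL- library (limma adjusted p of 0.0562 and 0.0509), that in Q-GL+ cells without Q-GL+ replicate 2 (0.135), Q-GL- replicate 1 (0.0929) or Q-GL- replicate 2 (0.0789), and that in Q+GL+ cells without any 1 of its libraries (0.0588 to 0.178).

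Ifi27, a mitochondrial protein gene, was the most abundant of the 31 at 108 to 148 FPKM in the 12 libraries. Xaf1, which opposes an inhibitor of apoptosis, and Rtp4, a receptor transport protein, had libraries of 1 group far apart. Xaf1 was at 1.61 and 3.02 FPKM in the Q-GL+ libraries, and Rtp4 at 2.68 and 4.26 FPKM in the same libraries. None of these 3 genes passed in any comparison.

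Of the comparisons, Pax3 over Q-GL- cells had the most calls outside NoTag, although this comparison was added after the data were seen. Of the 31 genes, 5 were higher in Pax3 cells and 1 lower (limma adjusted p under 0.05), where 0.716% of all genes tested were higher and 3.62% lower. The libraries did not overlap in 21 genes with higher and 2 with lower levels in Pax3 cells, against 15.2% and 29.4% of all genes. The 21 include Oasl2, which passed the filter on low values only through Pax3 libraries and gives no support to the count, and Mx1, which was under 1 FPKM in both groups. The median log2 fold change was 0.236 over the 31 genes and -0.043 over all genes. Without the first or the second Q-GL- library, 2 calls were left in either case.

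Q-GL+ over Q-GL- cells, a comparison of the GL pair without Q, had 3 genes higher and 1 lower (limma adjusted p under 0.05), where 1.11% of all genes were higher and 3.06% lower. No overlap between libraries was seen for 15 genes with higher and 3 with lower levels in Q-GL+ cells, against 18.0% and 33.2% of all genes. The median log2 fold change was 0.149, against -0.0388 over all genes. Without 1 of these libraries the 4 calls became 1 or 2, with 2 left only without Q-GL+ replicate 1. Q+GL+ over Q-GL- cells had 1 gene higher, Usp18, and 1 lower, Lgals3bp, where 0.358% and 1.80% of all genes were, and 0 of these calls were left without any 1 of the 4 libraries. The libraries did not overlap in 16 genes with higher and 4 with lower levels in Q+GL+ cells, against 19.2% and 29.3% of all genes, and the median was 0.178, against -0.0211 over all genes. These 3 comparisons share the Q-GL- libraries, so their values are not independent of each other.

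**Figure D4:**
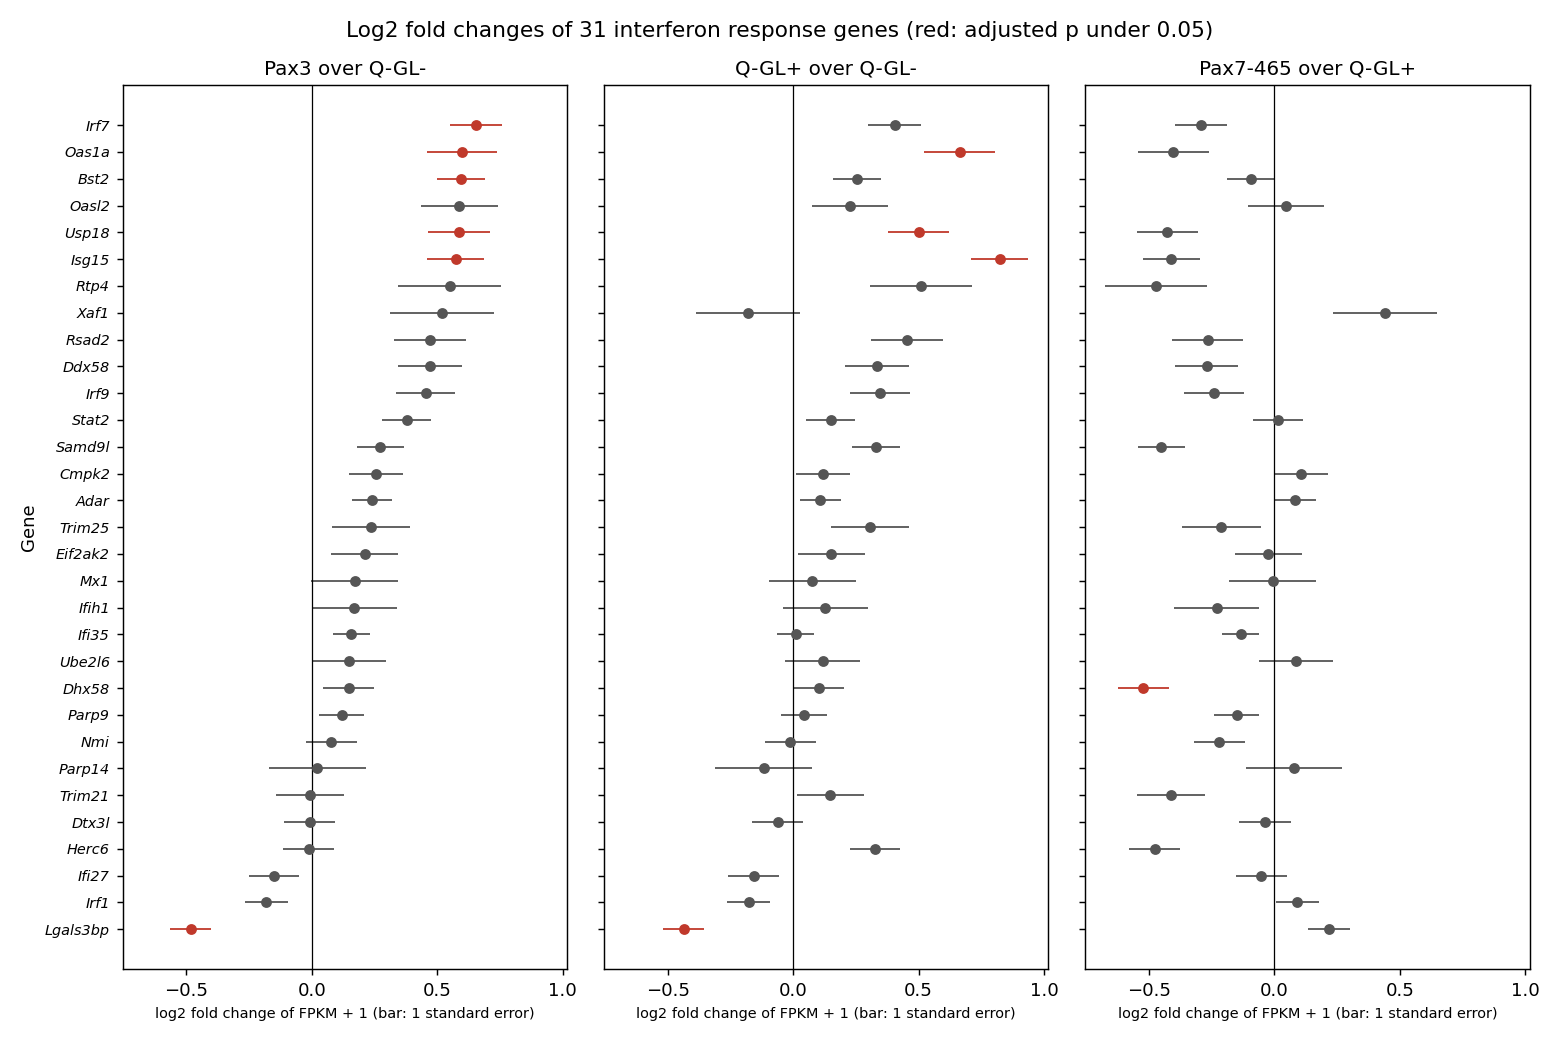
Log2 fold changes of log2(FPKM + 1) (points) with 1 standard error (bars) for the 31 genes, in the order of Pax3 over Q-GL- cells, with those at a limma adjusted p under 0.05 in red. Points lie mostly right of 0 for Pax3 over Q-GL- (median 0.236) and Q-GL+ over Q-GL- (0.149), which share libraries, and mostly left for Pax7-465 over Q-GL+ (-0.15).

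Between the 2 GL+ isoforms, Q-GL+ over Q+GL+, 1 gene was higher, Isg15, and 0 lower (limma adjusted p under 0.05), where 0.509% of all genes were higher and 0.453% lower. The call was lost without any 1 of the 4 libraries. No overlap between libraries was seen for 11 genes with higher and 6 with lower levels in Q-GL+ cells, against 19.2% and 25.7% of all genes, and the median was 0.0425, against -0.0148 over all genes.

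Between Pax3 cells and the GL+ isoforms no single gene passed. For Pax3 over Q+GL+ cells, 0 genes passed (limma), where 0.262% of all genes did, and an unadjusted p under 0.05 was reached by 7 that were higher and 2 that were lower, and by 10.2% of all genes. The libraries did not overlap in 15 genes with higher and 4 with lower levels in Pax3 cells, against 13.8% and 21.6% of all genes, and the median was 0.115, against -0.0237 over all genes. For Pax3 over Q-GL+ cells, 0 genes passed (limma), where 0.708% of all genes did, and an unadjusted p under 0.05 was reached by 5 that were higher and 2 that were lower, and by 10.2% of all genes. No overlap between libraries was seen for 11 genes with higher and 3 with lower levels in Pax3 cells, against 15.5% and 18.9% of all genes, and the median was 0.0582, against -0.00641 over all genes.

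Between Pax7-465 cells and the GL+ isoforms, Dhx58 was the gene that passed. For Pax7-465 over Q+GL+ cells, 0 genes were higher and 1 lower (limma adjusted p under 0.05), where 0.867% of all genes were higher and 0.461% lower. The libraries did not overlap in 3 genes with higher and 13 with lower levels in Pax7-465 cells, against 19.6% and 23.4% of all genes, and the median was -0.124, against -0.00906 over all genes. For Pax7-465 over Q-GL+ cells, 0 were higher and 1 lower, again Dhx58, where 0.501% and 0.294% of all genes were, and 0 calls were left without any 1 of the 4 libraries or with a replicate block. No overlap between libraries was seen for 1 gene with higher and 15 with lower levels in Pax7-465 cells, against 20.5% and 17.6% of all genes, and the median was -0.15, against 0.00578 over all genes. The comparisons of Pax3 and of Pax7-465 cells with these isoforms share the isoforms' libraries. Against Q-GL- cells, a comparison also added after the data were seen, 0 genes passed (limma), where 0.445% of all genes did, and an unadjusted p under 0.05 was reached by 2 that were higher and 3 that were lower, and by 10.8% of all genes. There the libraries did not overlap in 13 genes with higher and 10 with lower levels in Pax7-465 cells, against 13.7% and 28.1% of all genes.

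For Pax7-465 over NoTag cells, 2 genes were higher and 9 lower (limma adjusted p under 0.05), where 7.94% of all genes were higher and 37.9% lower, and the libraries did not overlap in 7 genes with higher and 16 with lower levels in Pax7-465 cells, against 17.0% and 57.4% of all genes. The shares called were no larger among the interferon response genes than among all genes. Of the 9 lower, Mx1 passed the filter on low values only through the NoTag libraries, so its lower level was set by the filter and gives no support to the count. The median log2 fold change was -0.188 over all genes and -0.154 over the 31, so the levels of a whole NoTag library are shifted on this scale. With each library centred on its median, 5 genes were higher and 4 lower, and with quantile normalization 5 were higher and 5 lower. Samd9l (log2 fold change 1.09, limma adjusted p = 3.4e-06) and Isg15 (0.60, limma adjusted p = 0.0012) were higher in Pax7-465 cells, and Stat2 (-0.75, limma adjusted p = 8.5e-05), Lgals3bp (-0.71, limma adjusted p = 3.5e-05) and Nmi (-0.61, limma adjusted p = 0.00053) were lower, under each of the 3 scalings. Trim21 (-0.54), Cmpk2 (-0.45), Ifi35 (-0.35), Irf1 (-0.34) and Herc6 (-0.28) were also lower, and Cmpk2, Ifi35, Irf1 and Herc6 did not pass with median centring or quantile normalization, nor Trim21 with median centring. Without NoTag replicate 1 the count was 2 higher and 5 lower.

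Genes with the response element letters in their promoter window were described beside those without. Of the 31 tested, 24 have a window and 9 of these hold the GAAA motif: Bst2, Ddx58, Eif2ak2, Ifih1, Isg15, Oas1a, Rsad2, Stat2 and Trim21. For Pax3 over Q-GL- cells, 3 of the 9 were called higher and the libraries of 7 did not overlap with higher levels in Pax3 cells, with a median log2 fold change of 0.471, where 0.716% of all genes tested were called higher and 15.2% did not overlap in that direction. Of the 15 without the letters, 1 was called higher and 1 lower and 10 did not overlap with higher levels, with a median of 0.236. Q-GL+ over Q-GL- cells shares the Q-GL- libraries with the comparison before it. There Isg15 and Oas1a were called higher among the 9 with the letters. Of the 15 without them, 0 were called higher and 1, Lgals3bp, lower. Of all genes, 1.11% were called higher and 3.06% lower. Usp18, called higher in both comparisons, has no window and is in neither set. The libraries of 6 of the 9 and 5 of the 15 did not overlap with higher levels in Q-GL+ cells, against 18.0% of all genes. The medians were 0.255 with the letters and 0.117 without. Irf7, which had the smallest adjusted p in Pax3 over Q-GL- cells, has no match in its window.

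Other genes of the pathway were followed in the same way. No type I, II or III interferon gene of the 14 looked for is in the table, and their transcripts were not analysed here. Of 10 further sensing genes such as Mavs and Tbk1, 0 passed the F test over the 5 groups (limma, also 0 at an unadjusted p under 0.05). Of all genes, 4.78% passed, and 19.5% did at an unadjusted p under 0.05. Of 14 tested genes of the receptors and their signalling, Socs3 was among those that passed (limma adjusted p = 0.0406). Socs3, a feedback inhibitor of cytokine receptors, was at 5.14 and 5.62 FPKM in Pax3 cells, 5.86 and 6.54 in Pax7-465 cells, 5.54 and 5.34 in Q-GL+ cells, 5.04 and 5.79 in Q+GL+ cells and 8.72 and 7.38 in Q-GL- cells. It was lower than in Q-GL- cells in Pax3, Q-GL+ and Q+GL+ cells (limma adjusted p of 0.0178, 0.0223 and 0.0303).

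Of 63 further interferon-stimulated genes listed, 36 were tested and 3 passed the F test, Slfn9 (limma adjusted p = 0.009), Oas2 (0.0105) and Helz2 (0.0118), against the 4.78% of all genes given above. At an unadjusted p under 0.05 by this test, 11 of the 36 passed, against 19.5% of all genes. Oas2, a relative of Oas1a, was at 1.82 and 2.02 FPKM in Pax3 cells, 1.25 and 0.982 in Pax7-465 cells, 2.23 and 2.61 in Q-GL+ cells, 1.98 and 2.06 in Q+GL+ cells and 0.897 and 1.15 in Q-GL- cells. The 6 libraries of Pax3, Q-GL+ and Q+GL+ cells were thus above the 4 of Pax7-465 and Q-GL- cells, as for Usp18. Helz2, a helicase coactivator, was at 7.73 and 7.57 FPKM in Pax3 cells, 5.37 and 5.34 in Pax7-465 cells, 7.21 and 6.95 in Q-GL+ cells, 7.64 and 8.04 in Q+GL+ cells and 5.43 and 5.95 in Q-GL- cells, with the same division. Slfn9 had another order, with 26.0 and 25.9 FPKM in Pax7-465 cells and 26.9 and 24.8 in Q-GL+ cells. It was at 18.9 and 20.8 FPKM in Pax3 cells, 20.7 and 21.5 in Q+GL+ cells and 18.9 and 19.2 in Q-GL- cells. In Pax3 over Q-GL- cells, the median log2 fold change of the 36 genes was 0.000448, against -0.043 over all genes. By the limma test, 3 were higher (Helz2, Oas2 and Oas1g) and 1 lower (Isg20), against 0.716% and 3.62% of all genes. In Q-GL+ over Q-GL- cells, the median of the 36 genes was -0.0521, against -0.0388 over all genes. There 2 were called higher and 0 lower (limma), against 1.11% and 3.06% of all genes. The libraries did not overlap in 9 with higher and 11 with lower levels in Q-GL+ cells, against 18.0% and 33.2% of all genes. Of 12 tested targets of NF-kB, another pathway of innate immunity, 0 passed the F test (limma), against 4.78% of all genes. Birc3, Nfkbib, Nfkbia and Nfkb2 were the 4 at an unadjusted p under 0.05 by this test, which 19.5% of all genes reached.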

How the data were processed

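Total RNA of AtT-20 cells was depleted of ribosomal RNA and sequenced, and 12 libraries in 6 groups of 2 were used, assigned to groups by their titles. The deposited values are FPKM per gene, a unit the table does not name. Per the study's methods, the authors trimmed strand-specific paired-end reads with Trimmomatic, mapped them with TopHat2 to Ensembl GRCm38 (mm10) without a search for further junctions and quantified genes with HOMER. The versions of these tools for the RNA libraries, the total used for scaling and any filter on genes are not given in the sources used here. The authors name edgeR for their own tests, which takes counts. The table holds none, and 31 values above 0 lie under 1e-10, so no count test was run. A further 4 columns of values match no sample and were not used.

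FPKM were taken as log2(FPKM + 1), a scale that understates the change of low genes. Genes that reached 1 FPKM in 2 or more libraries were fitted with limma 3.58.1 (trend and robust options, statmod 1.5.0, R 4.3.3), 1 coefficient per group and all 12 libraries. P-values were adjusted by Benjamini-Hochberg over all 12578 genes within each comparison. There were 8 planned comparisons and an F test over the 5 groups other than NoTag, and 2 comparisons were added after the data were seen. The members and the gene lists were chosen with earlier results of these data known. Every member may be named. Of each other list, up to 4 genes with the smallest F test p were named, and Isg20 after its values were seen. The result of 1 gene of the receptors and their signalling is not reported here. Starts in the table count from 0 and were raised by 1.

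Libraries of the same number in different groups did not deviate together (correlations between -0.158 and 0.173 over 15 pairs of groups), so the numbers were not taken as pairs. The fit was tested on simulated data. Alternatives were quantile normalization, median centring, no filter, a filter of 5 FPKM, a pseudocount of 0.1, no NoTag libraries, no robust option, a replicate block, a further threshold of 0.5 on the log2 fold change, and the omission of single libraries. Counts and plots were made in Python 3.11.15 (pandas 2.3.3, matplotlib 3.10.9, numpy 2.4.6).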

Additional observations from a re-analysis of the deposited data

How the results depend on the processing

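No alternative reversed a difference that had passed. With quantile normalization the interferon response genes that passed the F test became 11, against 6, and in single comparisons they became 2, against 1, for Q-GL+ over Q+GL+ and for Pax7-465 over Q+GL+, 3, against 1, for Pax7-465 over Q-GL+, and 13, against 6, for Pax3 over Q-GL-. With median centring they became 3 for Pax7-465 over Q-GL+ and 11 for Pax3 over Q-GL-. An unadjusted F test gave 18. With a filter of 5 FPKM, which left 17 of the genes, the count was 2 for Pax7-465 over Q-GL+ and 1, against 2, for Q+GL+ over Q-GL-. A log2 fold change of at least 0.5 left 1 for Q+GL+ over Q-GL- and 7, against 11, for Pax7-465 over NoTag. Without the NoTag libraries and with the replicate block, the count for Pax7-465 over Q-GL+ was 0.

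With the replicate block, which pairs libraries that share only a number, the counts were 6 for the F test, 3 for Q-GL+ over Q-GL-, 1 for Q-GL+ over Q+GL+, 2 for Q+GL+ over Q-GL-, 1 for Pax7-465 over Q+GL+, 11 for Pax7-465 over NoTag and 6 for Pax3 over Q-GL-.

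With 1 library left out the count ranged over 2 to 7 for the F test, 1 to 2 for Q-GL+ over Q-GL-, 2 to 5 for Pax3 over Q-GL- and 7 to 11 for Pax7-465 over NoTag, and was 1 throughout for Pax7-465 over Q+GL+ and 0 throughout for Q-GL+ over Q+GL+, Q+GL+ over Q-GL-, Pax7-465 over Q-GL-, Pax7-465 over Q-GL+ and both comparisons of Pax3 with GL+ isoforms. A group with 1 library left was assumed to vary like the others. The causes of these changes were not tested. Read depth is unknown, so a gene listed at 0 or under 1 FPKM may be expressed below what these libraries could show.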
